A study of Rattus norvegicus with 16 samples.

Results

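The 47 genes described here had far fewer counts in the hippocampus of exercise-trained rats than in that of sedentary rats at both ages. They were chosen from the counts themselves. Levels are given in CPM, each gene's count divided by the library total and multiplied by 1000000. A gene was kept when its mean over the 8 sedentary libraries was at least 1 CPM and when its trained mean was at most 20% of its sedentary mean in young and in old rats, a ratio limit of 0.2. The rule took 47 of 32754 Ensembl gene IDs, and 14528 IDs met the level criterion alone. The low level in trained libraries is therefore the criterion and is given below as a description, with no test.

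Bulk RNA sequencing was done on hippocampal tissue of wild-type male Fischer-344 rats, an inbred strain much used in aging work, with 4 libraries in each of 4 groups. Young rats were 6 months old and old rats 20 months old. At each age they either underwent exercise training or were left sedentary for 10 weeks, and hippocampi were taken after behavioral testing. Library totals ran from 8630396 to 14576687 counts. The library with the largest total, young sedentary replicate 2, was not the one with the highest summed level of these genes. Every rat gave its own library, per the labels. Which library ran in which sequencing lane is not stated there, so differences between lanes could not be checked.

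The hippocampus is a folded sheet of cortex that is needed for forming memories. It lies against the lateral ventricle, whose choroid plexus secretes cerebrospinal fluid, and near the thalamus, striatum and neocortex. Small amounts of a neighbouring region can enter a hippocampal sample at dissection, and genes restricted to that region then rise and fall together from sample to sample. The count table gives Ensembl IDs with no gene symbols, and the gene table used here pairs 0 of its entries with an Ensembl ID. The role of each member, the markers of hippocampal and neighbouring cells, and the tissue label itself could therefore not be checked. In bulk tissue, fewer cells of a type and less RNA per cell cannot be told apart.

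Members are numbered 1 to 47 by falling mean sedentary CPM. The number orders counts and not amounts of transcript, since counts also grow with transcript length. Sedentary means ran from 1.12 to 292 CPM with a median of 5.10 CPM. They were at least 10 CPM in 18 members and under 2 CPM in 11 members.

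Member 1 (ENSRNOG00000016346) stood at 98.9, 245, 56.0 and 282 CPM in young sedentary replicates 1 to 4 and at 303, 468, 163 and 719 CPM in the old sedentary replicates. In the young trained replicates it stood at 11.5, 31.8, 12.4 and 10.7 CPM, and in the old trained replicates at 26.2, 20.0, 24.9 and 19.1 CPM. The highest trained library was below the lowest sedentary library. The young trained mean was 9.73% of the young sedentary mean and the old trained mean 5.45% of the old sedentary mean.

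Member 2 (ENSRNOG00000026953) stood at 70.6, 223, 38.6 and 129 CPM in the young sedentary replicates and at 269, 224, 58.0 and 69.5 CPM in the old sedentary replicates. It stood at 7.55, 14.9, 11.6 and 4.33 CPM in the young trained replicates. In the old trained replicates it was at 47.4, 19.1, 20.2 and 8.54 CPM. Its groups did not overlap within an age, but old trained replicate 1 lay above young sedentary replicate 3.

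Member 10 came closest to a complete loss among the well-counted members. Its 8 sedentary libraries ran from 4.64 to 67.5 CPM, and no trained library held more than 1 count of it. Member 22 had 550 counts over the 8 sedentary libraries and 1 count over the 8 trained libraries, a ratio of 591 (95% exact Clopper-Pearson bounds 106 and 23393, which cover counting error only). It stood at 1.10, 3.36, 0.290 and 5.61 CPM in the young sedentary replicates and at 7.86, 9.89, 1.48 and 18.9 CPM in the old ones. The remaining signal of other members was larger. Member 3 stood at 12.6, 13.5, 9.87 and 10.0 CPM in the young trained replicates and at 6.49, 11.1, 12.6 and 10.6 CPM in the old trained replicates, a narrow band below its sedentary range of 32.3 to 256 CPM.

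**Figure D1:**
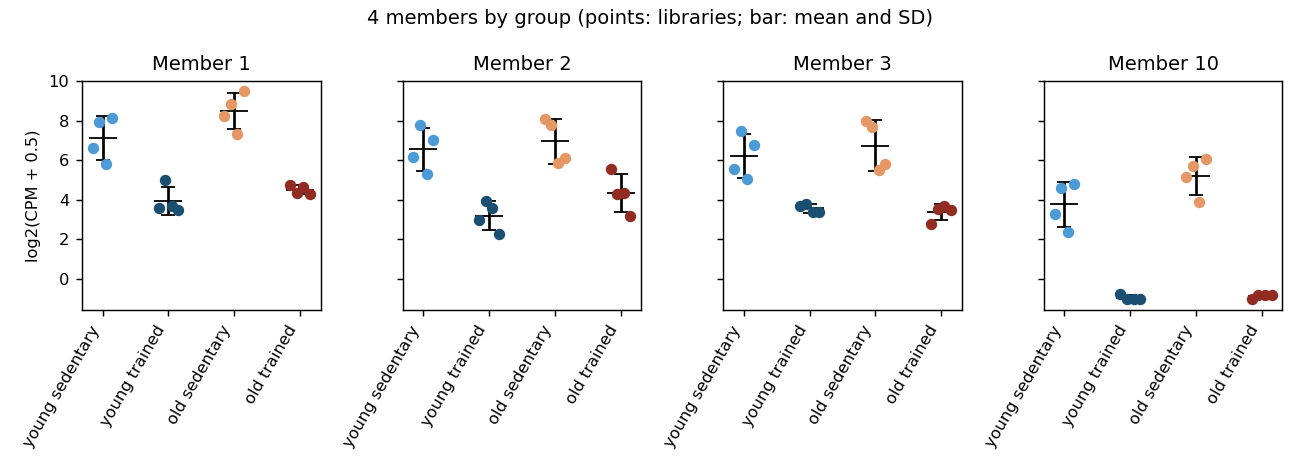
Level of members 1, 2, 3 and 10 on a log2(CPM + 0.5) scale by group. Points are libraries, and the bar gives the mean and SD of 4 libraries. Trained libraries lie below sedentary libraries of the same age in each panel, and member 10 lies near the floor of the scale in trained libraries.

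Across the 47 members the young trained mean was between 0.131% and 19.9% of the young sedentary mean, with a median of 11.4%. In old rats the share ran from 0% to 18.3% with a median of 5.05%. It was lower than in young rats for 41 members, a count not made over all genes. Every member also had the higher sedentary mean in old rats, which is the divisor of that share. Over the 14528 genes that met the level criterion the medians were 96.3% and 94.8%. No young trained library reached the lowest young sedentary library in 38 members (80.9%), against 14.8% of 15035 genes tested. The same held in old rats for 45 members (95.7%), against 14.9%. Over all 16 libraries it held for 32 members (68.1%), against 3.35%. The rule used these means, so the shares only describe the members. Of the members, 19 were at 0 in at least 1 trained library and 4 in at least 1 sedentary library.

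The members lay at the end of a longer series. Another 253 genes with sedentary means of at least 1 CPM had both ratios above 0.2 and at most 0.5, 160 passed the limit in old rats only, and 12 passed it in young rats only. The member nearest the limit had a young trained mean at 19.9% and an old trained mean at 0.528% of the sedentary mean, and the next stood at 19.1% and 15.2%. The nearest genes outside stood at 16.4% and 20.2%, and at 14.8% and 20.3%. Leaving out young trained replicate 2 took the number of members from 47 to 75. Without any other library the number lay between 38 and 64, and 29 members met the rule whichever library was left out.

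**Figure D2:**
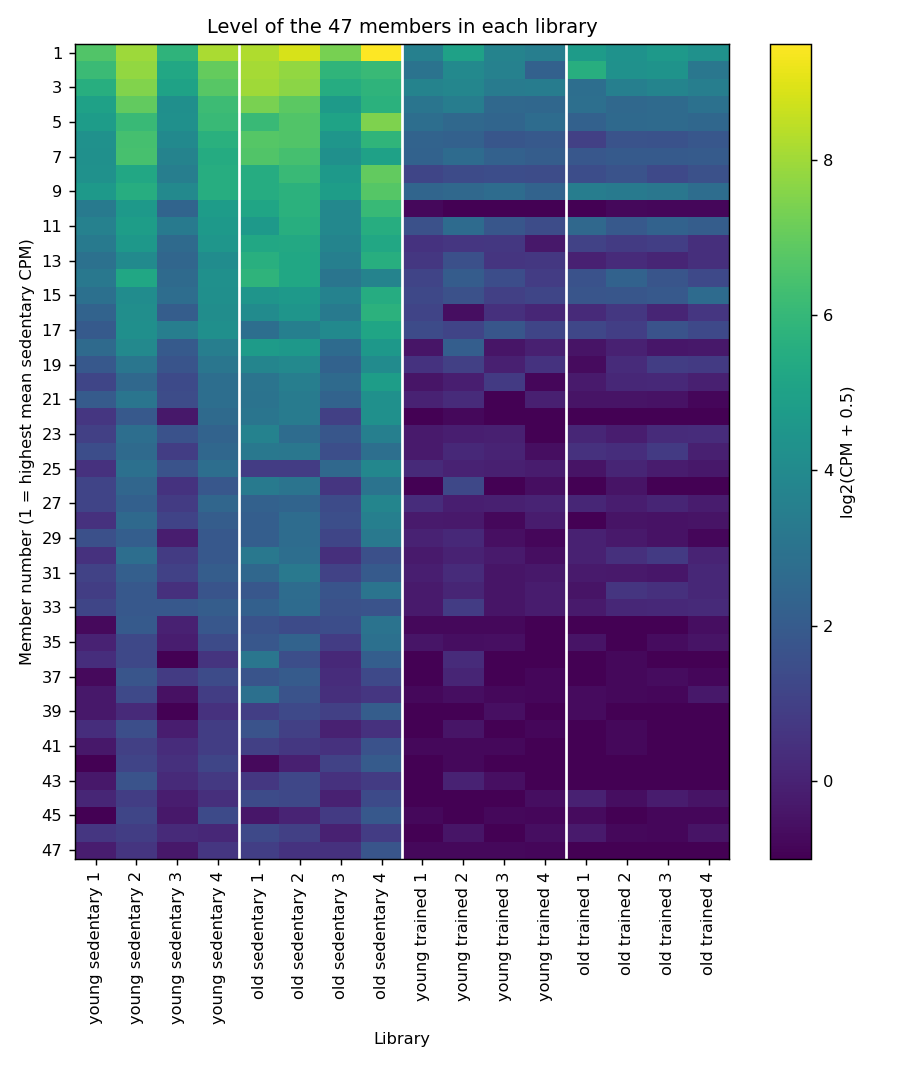
Level of each of the 47 members (rows, numbered by mean sedentary CPM) in each of the 16 libraries (columns) on a log2(CPM + 0.5) color scale. White lines separate the groups. Sedentary columns differ among themselves for nearly the whole set, with young sedentary 1 and 3 and old sedentary 3 darker than the other sedentary columns.

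The sedentary libraries differed widely among themselves. The summed level of the members was 456, 1398, 303 and 1112 CPM in young sedentary replicates 1 to 4 and 1768, 1854, 580 and 1970 CPM in the old sedentary replicates. In the young trained replicates it was 81.0, 128, 78.8 and 64.6 CPM, and in the old trained replicates 130, 103, 111 and 90.1 CPM. The lowest sedentary library thus held more than the highest trained library. Within members with a count in every sedentary library, the highest sedentary library was between 3.27 and 75.3 times the lowest, with a median of 9.21.

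The order of the sedentary libraries was shared by most members. The orders counted here were picked after the members' values were seen, so the counts are a description. Young sedentary replicates 2 and 4 were both above replicates 1 and 3 in 46 of 47 members, against 23.8% of all genes tested. Old sedentary replicate 3 was below the other 3 old sedentary replicates in 41 of 47 members, against 29.4%. The lowest sedentary library was young replicate 3 in 33 members, young replicate 1 in 12 and old replicate 3 in 2. The top was split: old replicate 4 was highest in 24 members, old replicate 1 in 17, old replicate 2 in 5 and young replicate 2 in 1.

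Whether the members vary together was measured over the 8 sedentary libraries, since the rule used group means and not the order of libraries within a group. Levels were taken as log2(CPM + 0.5), and each gene was correlated with member 1, the member of highest mean. These libraries share 2 age groups, so values after subtracting each age group's mean are also given. Pearson r was at least 0.8 in 28 of 46 members (60.9%), against 6.82% of 15034 genes tested. It was positive in all 46, from 0.38 to 0.99 with a median of 0.86, where the median over all genes was 0.12. After subtracting the age means 23 of 46 members (50.0%) reached 0.8, against 4.70% of all genes. By an exact permutation test over all pairings of the 8 libraries, 2-sided and with Benjamini-Hochberg adjustment over all genes tested, 14 of 46 members passed at adjusted p below 0.05, each with a positive r. The background was 0.698%, or 105 of 15034 genes, the members included. With pairings shuffled only within each age group and age means subtracted, a test added after the data were seen, 0 of 46 members and 0 of 15034 genes passed. At an unadjusted exact permutation p below 0.05 it found 24 of 46 members (52.2%), against 12% of all genes. The smallest p of that test is 0.00174, and its lowest adjusted p was 0.217. After adjustment over 15034 genes, a gene could pass only if a great many genes shared that smallest p. The 0 calls were thus nearly fixed in advance and are not read further.

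Member 10 followed member 1 most closely, with Pearson r = 0.99 (exact permutation p = 2.48e-05, the smallest that 8 libraries can give, adjusted p = 0.0178, and exact p = 0.00174 within ages, adjusted p = 0.217) and Spearman rho = 1 (exact permutation p = 4.96e-05). Without young sedentary 3 and old sedentary 4, the libraries farthest from the median of member 1, Pearson r was still 0.99. Member 8 had r = 0.99 (exact permutation p = 4.96e-05, adjusted p = 0.0226, and exact p = 0.00174 within ages, adjusted p = 0.217) and rho = 0.98 (exact permutation p = 0.000397), and r = 0.99 without those libraries. Member 8 stood at 19.2, 38.6, 10.8 and 45.9 CPM in the young sedentary replicates and at 44.2, 69.1, 25.2 and 125 CPM in the old ones. Its ratio to member 1 stayed between 0.146 and 0.194 in these libraries. In trained libraries that ratio ran from 0.0672 to 0.208, on both sides of the sedentary range. The ratio of member 10 to member 1 stayed between 0.0829 and 0.118 in sedentary libraries. In trained libraries, where the rule asked for low levels, it was at most 0.00746.

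Member 2 did not keep a fixed proportion to member 1. Their Pearson r was 0.56 (exact permutation p = 0.151, adjusted p = 0.388) and Spearman rho 0.55 (exact permutation p = 0.171). The ratio of member 2 to member 1 was 0.714, 0.910, 0.689 and 0.456 in the young sedentary replicates and 0.888, 0.479, 0.355 and 0.0966 in the old ones. Old sedentary replicate 4, the highest library for member 1, was thus low for member 2. Without young sedentary 3 and old sedentary 4 the Pearson r was 0.80.

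Several members kept a steady proportion to member 2 instead. Member 3 stood at 47.3, 179, 32.3 and 108 CPM in the young sedentary replicates and at 256, 206, 44.7 and 55.6 CPM in the old ones. Its ratio to member 2 stayed between 0.670 and 0.950, while its ratio to member 1 ran from 0.0773 to 0.843. Member 3 had Pearson r = 0.99 with member 2 (exact permutation p = 7.44e-05, adjusted p = 0.115) and rho = 0.98 (exact permutation p = 0.000397). Pearson r stayed at 0.99 without old sedentary 1 and young sedentary 3, the libraries farthest from the median of member 2. With member 2 as the reference, a choice made after the values were seen, 10 of 46 members (21.7%) had r of at least 0.8, against 3.09% of all genes. The exact permutation test called 0 of 46 members and 0 of 15034 genes for member 2, with 15 members and 1737 genes at an unadjusted p below 0.05.

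Among members 3 to 47, 26 had r of at least 0.8 with member 1 only, 8 with member 2 only, 2 with both and 9 with neither. Of the 16 further members with at least 10 CPM, 11 had the steadier log2 ratio to member 1 and 5 to member 2, namely members 3, 4, 6, 7 and 14. The split leaned in part on single libraries. Without old sedentary replicate 4 and young sedentary replicate 3, members 3, 4, 6, 7 and 14 had r of 0.80 to 0.88 with member 1. Over the 8 members with member 2 only, that r ran from 0.61 to 0.95. Without old sedentary 1 and young sedentary 3 instead, r with member 2 was 0.23 for member 8 and 0.37 for member 10. Over all 8 sedentary libraries, r of members 3, 4, 6, 7 and 14 with member 1 was 0.57 to 0.81. The SD of the log2 ratio was 0.16 for member 8 to member 1 and 1.08 to member 2. For member 3 it was 1.08 to member 1 and 0.16 to member 2.

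**Figure D3:**
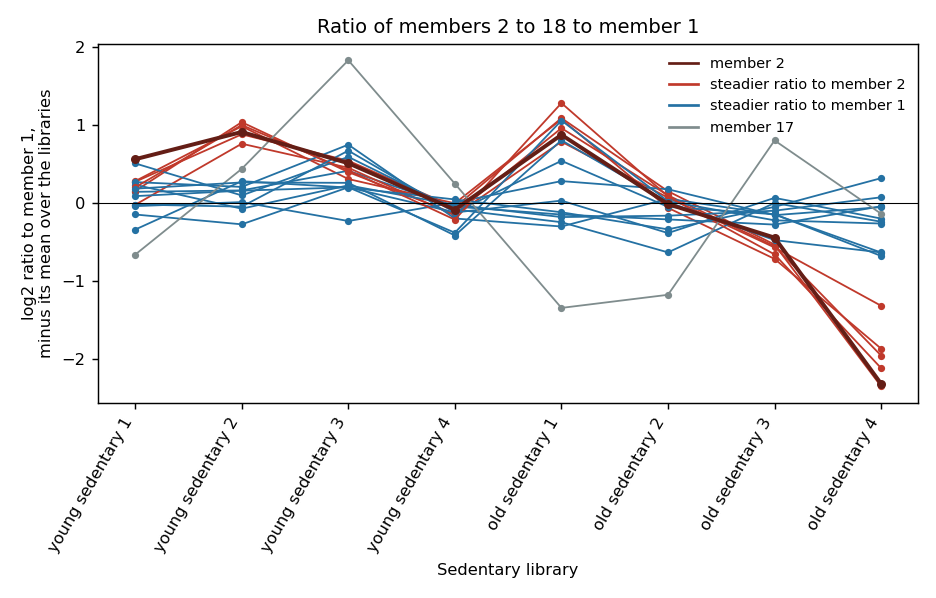
Ratio of members 2 to 18 to member 1 in each of the 8 sedentary libraries, on a log2 scale and centered on each member's mean. Each line is a member, colored by whether its ratio to member 1 or to member 2 had the smaller SD. Members 2, 3, 4, 6, 7 and 14 run together and drop in old sedentary 4, while most others stay near 0.

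A few members followed neither. Member 17 stood at 3.39, 18.0, 10.8 and 18.2 CPM in the young sedentary replicates and at 6.46, 11.2, 15.5 and 35.5 CPM in the old ones. Old replicates 1 and 2, high for members 1 and 2, were thus below old replicates 3 and 4 for member 17. Its Pearson r was 0.55 with member 1 (exact permutation p = 0.152, adjusted p = 0.390, rho = 0.50, exact permutation p = 0.216) and -0.07 with member 2 (exact permutation p = 0.863, adjusted p = 0.949, rho = -0.14, exact permutation p = 0.752). Without the 2 libraries farthest from the median, r was 0.48 with member 1 and 0.07 with member 2. Member 25 showed a like order at a lower level, with 0.897, 6.79, 2.71 and 6.51 CPM in the young sedentary replicates and 1.31, 1.31, 5.38 and 13.8 CPM in the old ones. Over all members, the level in old sedentary replicate 4 was between 0.222 and 13.4 times the mean of old replicates 1 and 2, higher in 29 and lower in 18.

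**Figure D4:**
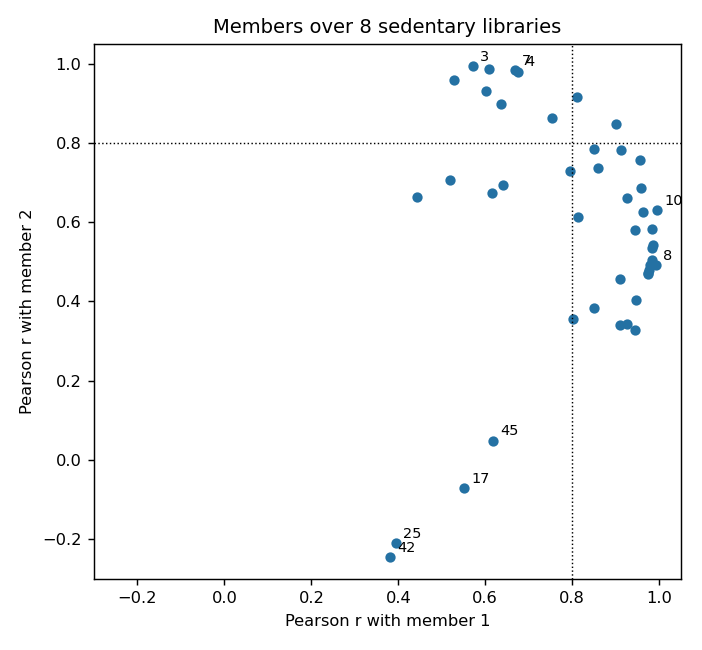
Pearson r of members 3 to 47 with member 1 (x axis) and with member 2 (y axis) over the 8 sedentary libraries, with dotted lines at 0.8. Points lie along the right edge (26 members), along the top (8 members) and, for members 17, 25, 42 and 45, near the bottom.

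Over the 1081 pairs of members the median Pearson r was 0.75 and 42.9% of pairs reached 0.8, against a median of 0.02 and 2.68% over all pairs of genes tested. After subtracting age means the median over pairs of members was 0.72 and 38.2% reached 0.8. The ratios between members are given here only as a description. Among members of at least 10 CPM, the ratios of members 8 and 10 to member 1 and of member 3 to member 2 varied least, and that of member 2 to member 1 ran over 9.43-fold. Its lowest value, 0.0966, came from old sedentary replicate 4 alone, and the other sedentary libraries lay between 0.355 and 0.910. A high r did not always come with a steady ratio: member 22 had r = 0.98 with member 1 and a ratio that ran over 5.08-fold, and member 38 had r = 0.90 with member 2 and a ratio that ran over 6.09-fold. The lowest of these ratios rested on 3 counts of member 22 in young sedentary replicate 3. For member 38 it rested on 3 counts in young sedentary replicate 1. Counting error can therefore widen both ranges. Members were set with member 1 or member 2 by this same measure, so the split is a description. Whether carried-in tissue had a part in either was not tested, since no markers of neighbouring regions could be matched.

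The pattern of member 1 was not restricted to the members. The 5 genes outside the set with the highest Pearson r with member 1, among those of at least 1 CPM in sedentary libraries, all had r = 0.99. Their exact permutation p ran from 2.48e-05 to 4.96e-05, adjusted p from 0.0178 to 0.0226, and rho from 0.98 to 1. Without young sedentary 3 and old sedentary 4 their r ran from 0.97 to 0.99. Their trained means stood between 20.3% and 49.5% of the sedentary mean in young rats and between 6.56% and 37.3% in old rats, so they too were lower in trained libraries. Of the 253 genes with both ratios above 0.2 and at most 0.5, 23.3% had r of at least 0.8 with member 1. The share was 17.1% of 1171 genes with ratios above 0.5 and at most 0.8, and 3.34% of 7670 genes with ratios above 0.8 and at most 1.2.

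The trained libraries also differed. Young trained replicate 2 was the highest young trained library in 27 of 47 members (57.4%), against 26.5% of all genes tested. For member 1 it stood at 31.8 CPM, above the other young trained libraries at 10.7 to 12.4 CPM. In old trained rats no library was highest in more than 13 members, leaving aside members with no count in any old trained library.

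Age was compared in sedentary rats, a contrast the rule did not use, with edgeR's quasi-likelihood test on all 15035 genes. Every member had a higher mean CPM in old than in young sedentary rats, against 59.4% of all genes tested. Since the members vary together over these libraries, they are not separate observations of age. Both sedentary means also entered the ratios of the rule. The median log2 fold change of the members, old minus young, was 0.93, where that of all genes was 0.01. No member passed: 0 of 47 had an adjusted p below 0.05, against 1.51% of all genes. At an unadjusted edgeR p below 0.05 there were 20 of 47 members, against 2998 of 15035 genes (19.9%). The old sedentary mean of member 1 was 413 ± 239 CPM (SD, n = 4) and its young sedentary mean 171 ± 110 CPM (SD, n = 4). In edgeR this was a change of 1.24 on the log2 scale (SE 0.51, adjusted p = 0.189). For member 2 the old mean was 155 ± 107 CPM (SD, n = 4) and the young mean 115 ± 81.1 CPM (SD, n = 4), a change of 0.37 on the log2 scale (SE 0.60, adjusted p = 0.793 in edgeR). The lowest adjusted p among the members was 0.0582, for members 13 and 39. Member 13 stood at 6.97, 15.9, 5.03 and 16.9 CPM in the young sedentary replicates and at 49.3, 37.1, 10.9 and 46.8 CPM in the old ones, a log2 fold change of 1.63 (SE 0.41). Old replicate 3 alone overlapped the young range.

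Other fits called some members. The DESeq2 Wald test called 2 of 47 members, against 2.42% of all genes called higher in old rats. An edgeR fit with the replicate number as a block called 9 of 47, against 274 of 15035 genes called higher. Without old sedentary replicate 3, 15 of 47 members passed in edgeR, against 5.56% of all genes called higher in that fit. That library was the lowest old sedentary library in 41 of 47 members, and the members vary together. The 15 calls thus rest on 1 library and are not read further. Leaving out any other single library called no member. All members called in these fits were higher in old rats.

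**Figure D5:**
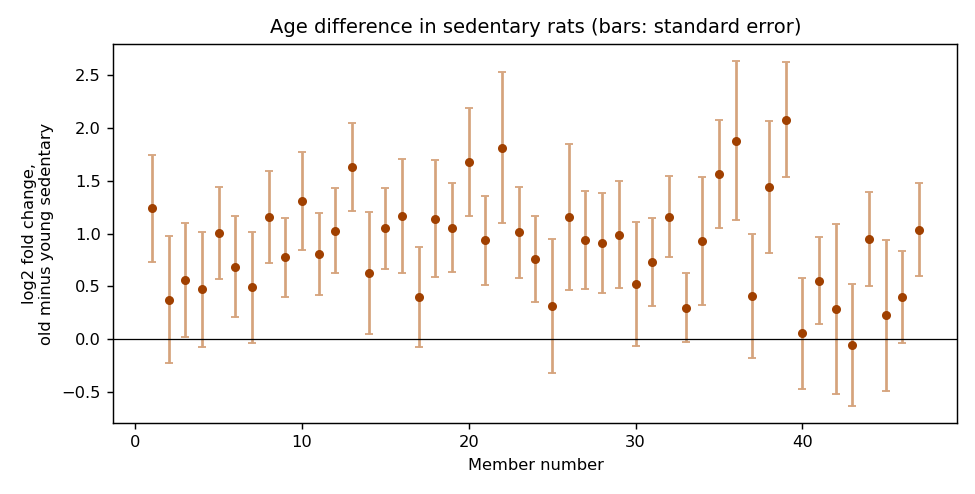
Log2 fold change of each member for age in sedentary rats, old minus young, from edgeR. Bars are the standard error. Points lie mostly above 0, with a median of 0.93, and none passed at adjusted p below 0.05.

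In trained rats the rule itself left few counts for a test of age. In the fit over 16 libraries edgeR called 0 of 47 members, against 4.98% of all genes, a count that low levels largely fix and that is not read further. In a fit to the 8 trained libraries alone, 17 of 47 members had enough counts to be tested. Of these 17, 1 passed, against 7.4% of 14530 genes, and 5 had an unadjusted edgeR p below 0.05, against 25.4%. These counts were near the shares over all genes and are not read as a result about the members. The member that passed was member 9, at 4.80, 5.34, 6.08 and 4.55 CPM in the young trained replicates and at 10.3, 9.24, 8.39 and 6.25 CPM in the old ones. Its change was 0.69 on the log2 scale (SE 0.17, adjusted p = 0.0336 in edgeR), old minus young. In the fit over 16 libraries the change of member 9 was 0.70 (SE 0.46, adjusted p = 0.389 in edgeR). For member 2 the old trained mean was 23.8 ± 16.6 CPM (SD, n = 4) and the young trained mean 9.59 ± 4.61 CPM (SD, n = 4). Its change was 1.28 on the log2 scale in both fits. The SE was 0.60 in the 8 trained libraries alone (adjusted p = 0.239 in edgeR) and 0.70 over 16 libraries (adjusted p = 0.294 in edgeR). Old trained replicate 1 was at 47.4 CPM and the other old trained libraries between 8.54 and 20.2 CPM. Whether the age difference itself differed between sedentary and trained rats was not tested, because that contrast is made of those that chose the members.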

How the data were processed

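The deposited table holds raw counts, whole numbers per Ensembl gene ID that the authors did not normalize, for 16 libraries of hippocampal poly(A) RNA. Per the submitters' processing notes, the tools included TopHat2 2.1.1, HTSeq, Trimmomatic, FastQC, SAMtools and DESeq2, with the build Rnor_6.0. For strand setting and annotation release nothing is stated in them, so overlapping, antisense and near-identical genes are uncertain.

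The tests used edgeR 4.0.16 under R 4.3.3 (filterByExpr, TMM scaling, 1 mean per group, robust glmQLFit over 16 libraries, 12 residual degrees of freedom, 2-sided tests, Benjamini-Hochberg over the 15035 genes tested). All 47 members passed the filter. DESeq2 1.42.0 was an alternative. Correlations were computed in Python 3.11.15 with a pseudocount of 0.5 CPM. How the tests behave for genes that vary as widely, and as much together, as the members do was not tested. Library totals of 8630396 to 14576687 set the precision, and intervals cover counting error only.

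The members, lists and tests were chosen with earlier results of these data known. Named genes were to be the 12 members of highest sedentary mean, members called for age, those nearest the ratio limit and the 5 genes most like member 1. Without gene symbols, marker lists were not used and IDs are printed for members 1 and 2 only. Members 13, 17, 22, 25, 38, 39, 42 and 45 and the pairing of members with member 2 were chosen after their values were seen. So were the orders of sedentary libraries that were counted. Alternatives were other scaling, filters, a replicate block, fits to 8 libraries, other limits of the rule and leaving out each library.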

Additional observations from a re-analysis of the deposited data

Results flagged for a closer look

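Levels of members 1 to 12 and their summed level over all 47 members were examined in each group of 4 libraries, 52 sets in all. In 5 sets the highest or lowest library lay far from the other 3, where chance gives about 5% of independent sets, or 2.6. These sets share libraries and are not independent.

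Member 1 stood at 31.8 CPM in young trained replicate 2, against 10.7 to 12.4 CPM in the other young trained libraries. Member 12 stood at 12.9 CPM in old sedentary replicate 3, against 38.5 to 39.4 CPM in the other old sedentary libraries. The summed level of the members was 580 CPM in old sedentary replicate 3, against 1768 to 1970 CPM in the others. Member 10 stood at 0.0857 CPM in young trained replicate 1, with 0 in the other young trained libraries, and at 0 CPM in old trained replicate 1, against 0.0717 to 0.0796 CPM in the others. Both values of member 10 rest on a difference of 1 count.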

How the results depend on the processing

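The number of members was 16 at a ratio limit of 0.1 and 123 at 0.3, and 38 to 75 on leaving out 1 library. Members with r of at least 0.8 with member 1 numbered 26 to 32 and the median r was 0.832 to 0.906 on leaving out 1 library. The exact permutation test called 14 members, and 0 with pairings within age groups, added after the data were seen. The smallest p within age groups is 0.00174, so that 0 was nearly fixed in advance. With member 2 as the reference, chosen after the data were seen, the values were 10 and 0.62. For age in sedentary rats 0 members and 227 genes were called. The replicate block gave 9 members and 560 genes, the DESeq2 Wald test 2 and 909, the 8 libraries alone 0 and 24, and leaving out 1 library 0 to 15 and 38 to 2007. Same-numbered libraries had correlations of deviations from -0.245 to 0.477, with 12 of 24 over 0.1. Of the 24, 11 were highest with their own number, where chance gives about 6. Separate rats were used, so the numbers were not taken to pair rats. The replicate labels do not say whether same-numbered libraries shared a processing step, and this was not tested. The log2 fold change of member 2 was -0.0220 without old sedentary replicate 1, and 0.0917 to 0.919 without any other library. For age in trained rats 0 of 47 members and 748 genes were called, 1 of 17 members tested and 1075 of 14530 genes in the 8 libraries alone, 1238 genes by DESeq2, and 237 to 1049 genes on leaving out 1 library. The members' median fold change there turned from -0.138 to 0.0497 with a stricter filter and 0.0456 in the 8 libraries alone, and ran from -0.226 to 0.0424 on leaving out 1 library, the latter without young trained replicate 2. Training called 2572 genes in young rats, 1289 to 2992 on leaving out 1 library, and 3618 in old rats, 2345 in the 8 libraries alone. The cause of these shifts was not tested.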
